A study of Mus musculus with 4 samples.

Results

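The Postn-positive cells of the embryonic day 12.5 (E12.5) mouse gut epithelium were 315 of 3426 cells that passed a common depth filter, a share of 9.19% (95% exact Clopper-Pearson interval 8.25 to 10.2%). They were 315 of 22731 barcodes in the 4 libraries of the series. A cell entered the depth filter with at least 500 detected genes, at most 20% mitochondrial UMIs and at least 8000 UMIs (sequence tags that let each captured RNA molecule be counted once). A member then had at least 1 UMI of Epcam, at least 3 of Postn, at least 1 of Gpc3 and at most 1 of Onecut2. Of the 3426 cells, 3412 had Epcam, 1894 of these had at most 1 Onecut2 UMI, 1624 of those had Gpc3, and 315 of those had 3 or more Postn UMIs. The members were thus chosen by the measured levels of these 4 genes. All other gene levels come from the same cells, so they are given as descriptions, with no test.

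The mice carried Bmi1-GFP, a reporter in which GFP is driven from the Bmi1 locus; the strain was shared by every library of the series. The E12.5 intestines were dissected and dissociated, their epithelium was isolated by fluorescence-activated sorting, and RNA was counted from its 3' end by droplet sequencing. The other groups were E17.5, adult and irradiated adult intestine, with 1 library each, so no difference between groups has a replicate check. The sorting gates, the number and sex of the embryos and the region of gut taken are not in the labels. The members were compared with 3 sets of E12.5 cells under the same depth filter: all 3111 other cells, the 1518 Epcam-positive cells with 2 or more Onecut2 UMIs (Onecut2-positive), and the 1579 other Epcam-positive cells with at most 1 (other Onecut2-low). The first set contains the other 2 sets and 14 cells without Epcam. The median depth was 20892 UMIs in the members, 22223 in all other cells, 27162.5 in the Onecut2-positive cells and 18469 in the other Onecut2-low cells. The cells of one library are not replicates, and every interval covers counting error only.

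At midgestation the gut epithelium is a tube of dividing cells that receives regional identity along its length from Hox, Cdx and Gata transcription factors and exchanges Hedgehog, Wnt, BMP and FGF signals with the mesenchyme around it. Postn encodes periostin, a secreted matricellular protein that binds integrins and other matrix proteins and is best known from mesenchymal cells. Gpc3 encodes glypican 3, a heparan sulphate proteoglycan held at the cell surface that modulates growth factor signals. Map1b encodes a microtubule-associated protein known from growing axons. 2610528A11Rik encodes the secreted ligand of the receptor Gpr15. Onecut2 encodes a transcription factor of the proximal intestine, pancreas and liver.

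The 100 bases before the RefSeq start sites of the 4 marker genes are shown because these genes were detected together in the same cells (build GRCm38.p6, gene strand, 5′ to 3′). Capitals mark the letters TATAAA, the only motif searched. Postn lies on the plus strand and has 2 start sites in the table (chr3:54359167-54359266 and chr3:54361007-54361106). Gpc3 (chrX:52613975-52614074), 2610528A11Rik (chr14:37110102-37110201) and Map1b (chr13:99516603-99516702) lie on the minus strand.
Postn, start site 1: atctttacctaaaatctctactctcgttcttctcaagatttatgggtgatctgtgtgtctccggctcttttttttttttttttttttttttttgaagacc
Postn, start site 2: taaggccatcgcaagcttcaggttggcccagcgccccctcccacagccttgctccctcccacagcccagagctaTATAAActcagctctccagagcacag
Gpc3: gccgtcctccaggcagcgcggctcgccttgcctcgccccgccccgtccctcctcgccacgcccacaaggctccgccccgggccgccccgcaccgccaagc
2610528A11Rik: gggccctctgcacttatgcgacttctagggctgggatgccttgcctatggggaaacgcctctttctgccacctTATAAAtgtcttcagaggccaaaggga
Map1b: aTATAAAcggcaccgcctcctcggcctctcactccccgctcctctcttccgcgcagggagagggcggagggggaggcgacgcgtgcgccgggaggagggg
The first base of TATAAA stood 26 bases before the second Postn start, 27 before that of 2610528A11Rik and 99 before that of Map1b. These letters were absent from the Gpc3 window and from the first Postn window. Over 32851 RefSeq windows of 300 bases from 27025 genes, 8.32% held TATAAA on the gene strand and 13.6% on either strand. In the last 100 bases before the start the shares were 3.80% and 5.56%. A match describes the letters only.

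The marker genes varied widely among the 315 members. Postn (gene at chr3:54361109-54391037 in GRCm38) ranged from 3 to 57 UMIs per member with a median of 10, and its summed level was 593 UMIs per 1000000 (CPM), against 13.7 CPM in all other cells. Gpc3 (chrX:52272426-52613950) ranged from 1 to 54 UMIs with a median of 9, and its level was 480 CPM against 144 CPM. Both of these values were set by the rule. The other 2 markers were not used in the rule. 2610528A11Rik (chr14:37102140-37114022) ranged from 0 to 27 UMIs with a median of 6, and 305 of 315 members had a UMI of it. Its level was 294 CPM (95% exact Poisson interval 282 to 307), against 54.8 CPM in Onecut2-positive and 76.2 CPM in other Onecut2-low cells. Map1b (chr13:99421446-99516540) ranged from 0 to 46 UMIs with a median of 8, with a UMI in 309 members. Its level was 394 CPM (380 to 409), against 87.8 CPM in Onecut2-positive and 142 CPM in other Onecut2-low cells. The ranges of single cells overlapped for both genes, since the other sets held cells with up to 25 UMIs of 2610528A11Rik and up to 47 of Map1b.

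The epithelial label held in these cells. All 19 genes of an epithelial list, among them the E-cadherin gene Cdh1, keratins and claudins, were detected, and their summed level was 3154 CPM in the members and 3102 CPM in all other cells. The lowest member had 938 CPM over the list. Cdh1 was at 124 CPM against 76.5 CPM, and Krt19, a keratin of simple epithelia, at 409 CPM against 244 CPM. Krt8, another such keratin, was at 514 CPM against 679 CPM. Lgals4, a galectin of intestinal epithelium, was the only gene of the list at least 2-fold lower, at 24.8 CPM against 66.2 CPM.

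Summed levels of several genes rose or fell over bins of Postn UMIs. The lowest bins mixed members with other cells, so a continuous range cannot be told apart from a mixture of different kinds of cells. With each Epcam-positive, Onecut2-low cell thinned to 8000 UMIs, 1525 cells had no Postn UMI, 126 had 1 or 2, 125 had 3 to 5, 86 had 6 to 10 and 32 had over 10. 2610528A11Rik followed the bins at 74.5, 214, 295, 341 and 346 CPM, and Map1b at 143, 252, 394, 476 and 469 CPM. Both were above the lowest bin in the cells with 1 or 2 thinned Postn UMIs, of which 60 of 126 were members by their full counts. In the 83 Gpc3-positive cells with exactly 1 Postn UMI before thinning, none of them members, 2610528A11Rik was at 116 CPM and Map1b at 192 CPM. Anxa5, which encodes the phospholipid-binding protein annexin A5, stood at 17.5, 99.1, 175, 240 and 395 CPM. Hoxb9, a homeobox transcription factor gene, stood at 2.01, 34.2, 67.1, 75.7 and 78.6 CPM. In the opposite direction, the galectin gene Lgals2 stood at 616, 271, 136, 67.9 and 66.5 CPM. Plac8 stood at 265 CPM in the lowest bin and 30.2 CPM in the highest. Cdx2, the intestinal homeobox gene, moved little, at 331, 372, 379, 404 and 417 CPM, and so did Vim, at 769, 703, 641, 627 and 705 CPM. Without thinning, the 27 members with exactly 3 Postn UMIs had 123 CPM of Anxa5 (interval 94.6 to 158), and the 21 cells just outside the rule, with 2 Postn UMIs, had 105 CPM (77.3 to 139). Map1b was at 283 CPM just inside and 308 CPM just outside. Hoxb9 was at 47.8 CPM just inside and 24.0 CPM just outside, with overlapping intervals. Lgals2 was at 145 CPM (114 to 183) just inside and 260 CPM (215 to 311) just outside, and these intervals did not overlap. Anxa5 was at 39.0 CPM in the 83 cells with 1 Postn UMI. Another 71 cells had 3 or more Postn UMIs but were Onecut2-positive, and 3 met every condition except Gpc3.

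**Figure D1:**
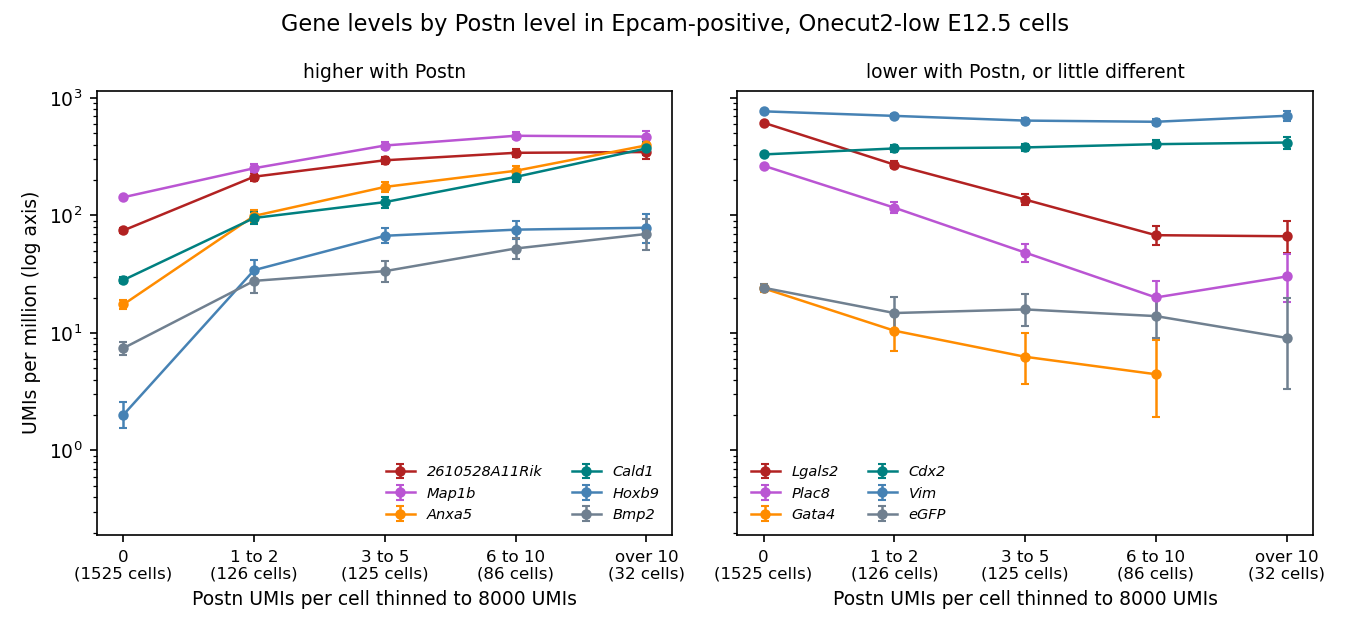
Level of 12 genes in Epcam-positive, Onecut2-low E12.5 cells (CPM, log axis; bars are 95% exact Poisson intervals) by the number of Postn UMIs per cell after thinning to 8000 UMIs. Anxa5 goes from 17.5 to 395 CPM across the bins and Lgals2 from 616 to 66.5 CPM, while Cdx2 stays between 331 and 417 CPM; Gata4 had no UMI in the last bin and is not drawn there.

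Against all other E12.5 cells, 8352 genes had a mean of the 2 levels of at least 10 CPM. Of these, 158 (1.89%) were at least 2-fold higher in the members and 89 (1.07%) at least 2-fold lower, on the log2(CPM + 1) scale. The median log2 ratio over all 8352 genes was 0.03. Against the Onecut2-positive cells, 205 of 8301 genes (2.47%) were higher and 99 (1.19%) lower. Against the other Onecut2-low cells, 132 of 8399 (1.57%) were higher and 88 (1.05%) lower. Log2 ratios below are against all other cells unless another set is named.

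Outside the rule's own genes, the largest ratio among the named genes was that of Hoxb9. It ranged from 0 to 9 UMIs per member with a median of 1, and 204 of 315 members had a UMI. Its level was 63.4 CPM (57.7 to 69.4) against 2.53 CPM, a log2 ratio of 4.19, and it was 2.79 CPM in Onecut2-positive and 2.18 CPM in other Onecut2-low cells. After thinning, 34.6% of members had a Hoxb9 UMI, against 1.46% of other Onecut2-low and 1.32% of Onecut2-positive cells. Members made up 71.7% of all 152 Epcam-positive cells with a Hoxb9 UMI at that depth. Some cells outside the rule had more Hoxb9 than their sets. It was at 27.5 CPM in 71 Onecut2-positive cells with 3 or more Postn UMIs. In cluster 12 of the clustering given below, where 16 of 96 cells were members, it was at 29.7 CPM.

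Several genes of secreted and membrane proteins were also among the highest. Fam19a5, which encodes a secreted chemokine-like protein, was at 54.1 CPM against 4.28 CPM. Bmp2, a bone morphogenetic protein ligand gene, ranged from 0 to 6 UMIs with a median of 1 and was at 41.6 CPM against 6.24 CPM. In cluster 12 Bmp2 was at 31.9 CPM. Serpinf1, which encodes the secreted pigment epithelium-derived factor, was at 32.1 CPM against 6.15 CPM. The genes of the adhesion proteins Lsamp (55.9 against 11.4 CPM) and netrin-G1 (Ntng1, 35.1 against 6.75 CPM) are both known from neurons. Tspan1, a tetraspanin gene, was at 73.3 CPM against 8.52 CPM. Ppp2r2b, a regulatory subunit gene of protein phosphatase 2A, was at 71.7 CPM against 6.30 CPM.

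Genes of actin- and calcium-linked proteins formed another part of the list. Anxa5 ranged from 0 to 39 UMIs with a median of 4, had a UMI in 291 members, and was at 195 CPM (185 to 206) against 21.6 CPM (log2 ratio 3.12). Cald1, which encodes the actin-binding protein caldesmon, ranged from 0 to 23 UMIs with a median of 3 and was at 165 CPM against 23.3 CPM. Scin, which encodes the actin-severing protein scinderin, was at 65.3 CPM against 10.5 CPM, and it was higher in Onecut2-positive cells (14.5 CPM) than in other Onecut2-low cells (4.90 CPM). Ahnak, which encodes a very large scaffold protein, was at 50.6 CPM against 10.1 CPM. All of these genes were at least 2-fold higher against each of the 3 sets.

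The genes with the largest deficits included several of the absorptive and proximal epithelium. Gata4, a transcription factor gene of the proximal intestine, was detected in 25 of 315 members, with at most 4 UMIs. It was at 5.53 CPM (3.95 to 7.54) in the members, 59.5 CPM in Onecut2-positive cells and 23.9 CPM in other Onecut2-low cells. Fabp2, the intestinal fatty acid binding protein gene, was at 6.78, 83.5 and 22.9 CPM in the same order. Lgals2 ranged from 0 to 42 UMIs per member with a median of 1, against medians of 19 and 12 UMIs per cell in the other sets. Its level was 125 CPM, against 692 and 614 CPM. Plac8 was at 46.5 CPM in the members, 496 CPM in Onecut2-positive and 265 CPM in other Onecut2-low cells. Lypd8, which encodes a GPI-anchored protein of the intestinal epithelial surface, was at 3.04, 42.1 and 16.3 CPM. Cfi, the complement factor I gene, was at 7.06, 43.5 and 45.5 CPM. These 6 genes were lower in the members than in both other sets. Low levels were not limited to the members. In cluster 12, where 16 of 96 cells were members, Plac8 was at 21.8 CPM, Lgals2 at 23.5 CPM and Gata4 at 5.04 CPM.

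For 2 of the named genes the deficit was against the Onecut2-positive cells alone. Sfrp5, which encodes a secreted Wnt inhibitor, was at 1.25 CPM in the members, 115 CPM in Onecut2-positive cells and 2.45 CPM in other Onecut2-low cells, a log2 ratio of -0.62 against the last set. St8sia3, a sialyltransferase gene, was at 1.25, 34.5 and 1.69 CPM. Tm4sf5, which was named against the Onecut2-positive cells, was at 0.69 CPM in the members, 18.1 CPM there and 4.60 CPM in other Onecut2-low cells. Against the other Onecut2-low cells the rule also named Sp5, a transcription factor gene known as a Wnt target (5.53 against 49.6 CPM). It named Lect2, a secreted factor gene (10.1 against 66.0 CPM), and Hopx, an atypical homeobox gene (15.2 against 90.4 CPM).

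**Figure D2:**
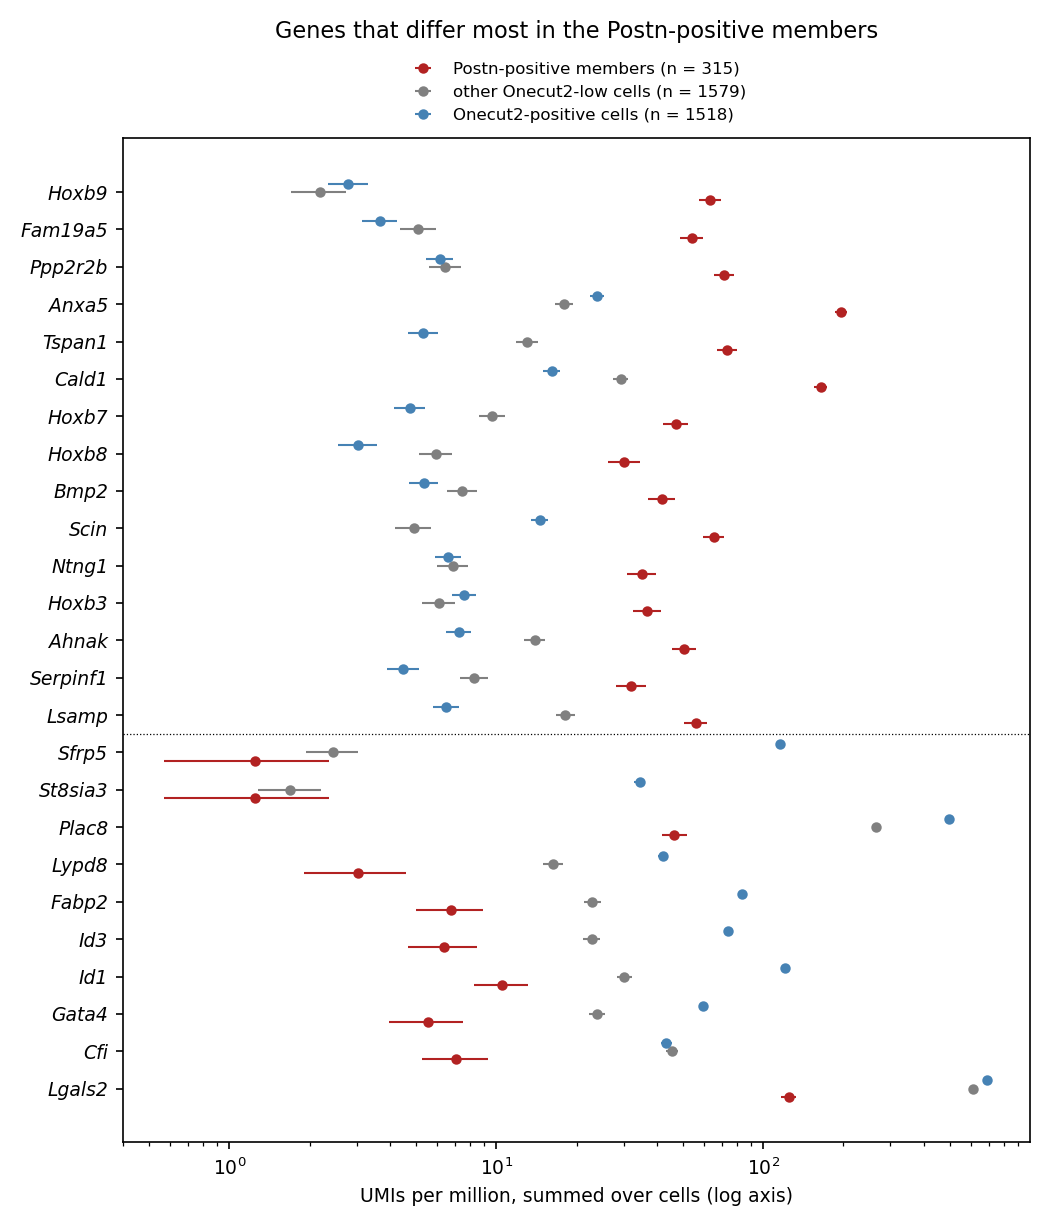
Levels of the 15 genes with the highest ratio (above the dotted line) and the 10 with the lowest (below it) in members against all other E12.5 cells, in CPM on a log axis; bars are 95% exact Poisson intervals and the 3 colours are the 3 sets of cells. Hoxb9 stands at 63.4 CPM in the members and below 3 CPM in both other sets, and Sfrp5 is low in both Onecut2-low sets.

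The Hoxb cluster on chromosome 11 was higher over a continuous run of genes. Going from the Hoxb1 end, Hoxb1 had no UMI in the members and Hoxb2 was at 8.85 CPM against 12.8 CPM in all other cells. From there, Hoxb3 was at 36.8 against 7.11 CPM, Hoxb4 at 33.1 against 10.9 CPM, Hoxb5 at 19.8 against 2.06 CPM and Hoxb6 at 23.1 against 2.54 CPM. Hoxb7 was at 47.2 against 6.90 CPM, Hoxb8 at 30.2 against 4.27 CPM and Hoxb9 (chr11:96271457-96276595) at 63.4 against 2.53 CPM. All 7 genes from Hoxb3 to Hoxb9 were at least 2-fold higher against each set, and their intervals did not overlap those of the other sets. Hoxb13, at the far end, was at 11.1 against 6.56 CPM. Cluster 12 had Hoxb3 at 20.2 CPM, Hoxb4 at 29.1 CPM, Hoxb5 at 15.1 CPM, Hoxb6 at 10.1 CPM, Hoxb7 at 22.4 CPM and Hoxb8 at 7.84 CPM. The strand setting of the counting is not given in the sources used here, so reads of overlapping or antisense transcripts in the cluster cannot be told apart from those of the named genes.

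**Figure D3:**
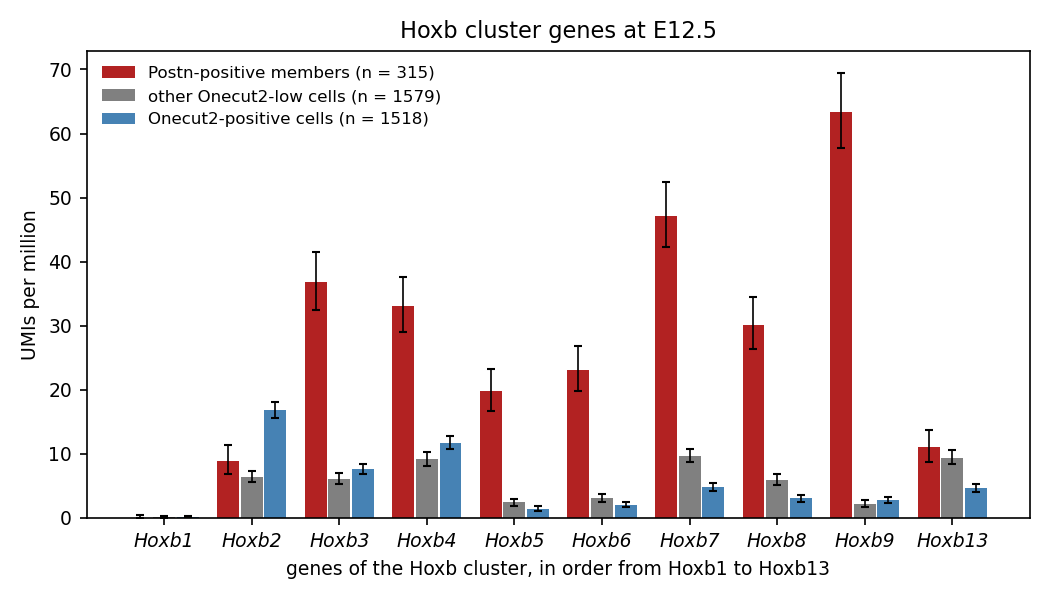
Levels of the genes of the Hoxb cluster in CPM, in order along chromosome 11, for the members and for the 2 other sets of Epcam-positive E12.5 cells; error bars are 95% exact Poisson intervals. The 7 genes from Hoxb3 to Hoxb9 are higher in the members, from 19.8 CPM (Hoxb5) to 63.4 CPM (Hoxb9), while Hoxb2 is highest in the Onecut2-positive cells.

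Read by position group, Hox genes number from the anterior (group 1) to the posterior end (group 13) of the body. In groups 1 to 4, 2 of 3 genes above 10 CPM were at least 2-fold higher and none lower. In groups 5 to 8, 4 of 4 were higher, with a median log2 ratio of 2.69. In groups 9 to 13, 2 of 2 were higher. These counts stand beside the 1.89% of all genes given above. Most Hox genes were too low to count (9 of 12, 7 of 11 and 14 of 16 genes), and a gene passing the floor through the members alone was prone to be called higher. Hoxa10 was the other posterior gene, at 22.6 CPM against 3.67 CPM. Hoxa7 was at 17.3 against 2.37 CPM, with a UMI in 75 members, but its mean was under the floor. After thinning, 73.3% of members had a UMI of Hoxa10 or of at least 1 gene from Hoxb5 to Hoxb9, against 17.3% of other Onecut2-low and 8.96% of Onecut2-positive cells.

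Among regional factors outside the Hox clusters, several proximal ones were lower in the members. Cdx2, in contrast, had a UMI in 309 of 315 members and was at 380 CPM against 299 CPM, less than 2-fold. Of 8 factors of the duodenum and proximal intestine, 5 were above the floor, 3 of them at least 2-fold lower, beside 1.07% of all genes. These were Gata4, Gata5 (4.57 against 25.1 CPM) and Isx, an intestinal homeobox gene (54.9 against 114 CPM). Gata6 (162 against 124 CPM) and the nuclear receptor gene Nr5a2 (73.5 against 44.3 CPM) were not. Gata4 and Gata5 were under 10 CPM in the members, so they passed the floor through all other cells. Genes that pass in this way are prone to be called lower, so this count is not directly comparable with the share of all genes. Pdx1, the factor gene of pancreas and duodenum, was below the floor at 1.66 CPM against 15.2 CPM in Onecut2-positive cells and was detected in 5 members. Of 9 factors of stomach and foregut, none was above the floor.

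Genes of matrix proteins and their receptors were next. Of 14 genes of periostin partners and related matrix enzymes, 6 were above the floor, 3 at least 2-fold higher (1.89% of all genes were) and none lower. Against each of the other 2 sets it was 2 of 6, without Fn1 against Onecut2-positive and without Loxl2 against other Onecut2-low cells. Fn1, which encodes fibronectin, ranged from 0 to 30 UMIs with a median of 7 and was at 363 CPM (349 to 377) against 169 CPM. Itgav, which encodes the integrin subunit alpha V that takes part in periostin binding, was at 51.6 against 16.6 CPM. Its beta partners were within 2-fold: Itgb1 at 149 against 132 CPM and Itgb5 at 34.6 against 40.7 CPM. Loxl2, a collagen cross-linking enzyme gene, was at 50.4 against 22.6 CPM. Sparc, another matricellular gene, was at 140 against 52.3 CPM, and Spp1, the osteopontin gene, at 5.26 against 39.6 CPM. Vcan, which encodes the proteoglycan versican, was at 316 CPM, against 136 CPM in Onecut2-positive and 223 CPM in other Onecut2-low cells. Of 11 basement membrane genes above the floor, none differed by 2-fold.

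Around Gpc3, the other heparan sulphate genes differed little. Of 20 genes of glypicans, syndecans and their enzymes, 12 were above the floor. Of these, 1 was at least 2-fold higher, where 1.89% of all genes were. That gene was Sdc4, which encodes the cell-surface proteoglycan syndecan 4, at 275 against 135 CPM. Against the other Onecut2-low cells none of 12 was 2-fold higher. Gpc6 was at 68.2 against 59.6 CPM and Gpc1 at 26.7 against 22.2 CPM. Among 20 genes of microtubule-associated and neurite-type cytoskeleton, drawn up around Map1b, 12 were above the floor. Of these 12 genes, 3 were higher and none lower, where 1.89% and 1.07% of all genes were. The 3 higher genes were the tubulin genes Tubb2b (295 against 127 CPM) and Tubb2a (34.2 CPM, log2 ratio 1.33) and Dpysl3, a gene of axon guidance (26.0 against 11.1 CPM). Against the other Onecut2-low cells 2 of 13 were higher and 1 was lower, where 1.57% and 1.05% of all genes were. The receptor of the 2610528A11Rik ligand, Gpr15, belongs to a list of 3 receptor genes of which none was above the floor.

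In the FGF list of 17 genes, 10 were above the floor, 4 at least 2-fold higher (1.89% of all genes were) and none lower, with a median log2 ratio of 0.44. All 4 are known as genes switched on by FGF signals. Spry1, a feedback inhibitor gene, ranged from 0 to 17 UMIs with a median of 2 and was at 122 CPM (114 to 130) against 51.5 CPM. Spry2, of the same family, was at 23.2 against 9.17 CPM. Etv5, a transcription factor gene, was at 26.8 against 7.88 CPM, and Dusp6, an ERK phosphatase gene, at 36.5 against 9.67 CPM. Spry2, Etv5 and Dusp6 were each under 10 CPM in all other cells, so they passed the floor through the members. Genes that pass in this way are prone to be called higher, so the list counts are not directly comparable with the shares of all genes. The receptor genes Fgfr1 to Fgfr4 were within 2-fold, for example Fgfr2 at 86.8 against 78.7 CPM. Etv4, another such response gene, was not among them: its log2 ratio was 0.33 against all other cells, -0.18 against Onecut2-positive and 1.71 against other Onecut2-low cells, the last under the floor. Against the Onecut2-positive cells 3 of 10 were higher (2.47% of all genes were), and Spry2 was not among them (log2 ratio 0.76). Against the other Onecut2-low cells 5 of 9 were higher (1.57% of all genes were): the same 4 genes and the ligand gene Fgf9, at 35.8 against 17.3 CPM. Fgf9 was at 47.7 CPM in Onecut2-positive cells, above the members. High levels of the response genes were not limited to the members: in cluster 12 of the clustering given below, where 80 of 96 cells were not members, Dusp6 was at 67.2 CPM and Spry2 at 37.5 CPM.

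The BMP list had 1 gene higher and 2 lower of 11 above the floor, where 1.89% and 1.07% of all genes were. Bmp2 was the higher gene. Id1 and Id3, transcription inhibitor genes known as BMP targets, were the lower ones. Bmp2 was under 10 CPM in all other cells, and Id3 was under 10 CPM in the members. Each thus passed the floor through 1 set and was prone to be called. Id1 had a UMI in 44 of 315 members and was at 10.5 CPM (8.28 to 13.2), against 121 CPM in Onecut2-positive and 30.2 CPM in other Onecut2-low cells. Id3 had a UMI in 22 members and was at 6.36, 73.8 and 22.8 CPM. Their per-cell counts were uneven, with up to 18 UMIs of Id1 and 15 of Id3 in a single member. Low Id3 was not particular to the members: in the mostly Onecut2-low clusters 1, 2 and 3 it was at 7.36, 4.51 and 4.99 CPM, while cluster 10, led by pancreatic genes, had 329 CPM and cluster 12 had 80.1 CPM. Id1 was at 22.7 to 23.4 CPM in clusters 1 to 3. By Postn bin, Id1 and Id3 were at 30.2 and 24.2 CPM in the 32 cells of the highest bin and at 30.5 and 23.2 CPM in the lowest, with lower levels between. The highest bin held 20 UMIs of Id1 and 16 of Id3 in all, so 1 or a few cells could set these levels. Id2 did not follow them, at 667 CPM in the members against 743 CPM in all other cells. The receptor genes Bmpr1a (58.1 against 47.0 CPM) and Bmpr2 (34.6 against 30.1 CPM) were within 2-fold.

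**Figure D4:**
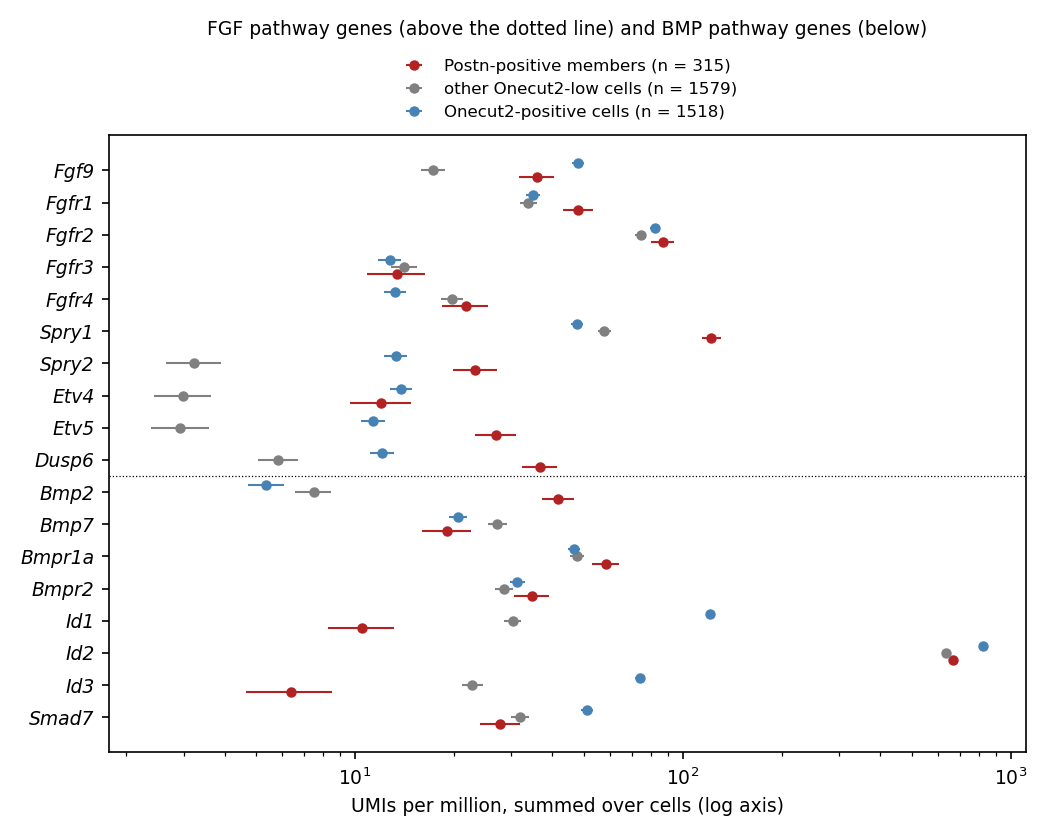
Levels of 10 FGF pathway genes (above the dotted line) and 8 BMP pathway genes (below it) in CPM on a log axis, for the members and the 2 other sets; bars are 95% exact Poisson intervals. Spry1, Etv5, Dusp6 and Bmp2 are highest in the members, Id1 and Id3 have their lowest summed levels of the 3 sets there, and the receptor genes of both pathways lie close together in the 3 sets.

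In the Hedgehog list, none of 7 genes above the floor differed by 2-fold, and the ligand gene Shh was at 316 against 313 CPM. Among 12 Wnt receptors and targets above the floor, Sp5 alone was lower and none was higher. Lef1, a Wnt effector gene, was under the floor but at 11.3 against 1.02 CPM. Among 3 Wnt ligands and secreted inhibitors above the floor, Sfrp5 was lower, and Wnt5a, a ligand gene, was at 16.6 CPM against 11.4 CPM in Onecut2-positive and 4.99 CPM in other Onecut2-low cells. Of 15 growth and imprinted genes above the floor, Plagl1, an imprinted zinc finger gene, was higher (39.6 against 14.3 CPM). Igfbp2 (90.5 against 182 CPM) and Dlk1 (20.6 against 47.9 CPM) were lower. Against the Onecut2-positive cells 1 of 15 was higher and 3 were lower. Against the other Onecut2-low cells none of 15 was higher and 1 was lower. Beside the lists of this paragraph, 1.89% of all genes were higher and 1.07% lower against all other cells. Sp5 and Sfrp5 were under 10 CPM in the members, so they passed the floor through all other cells and were prone to be called lower.

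Markers of other organs and cell types were checked in the same cells. Mesenchymal markers were scarce: Col1a1 and Col1a2 were at 0.14 CPM each, with 1 UMI in all members, and Lum and Tcf21 had none. Over the 16-gene mesenchyme list the members summed to 36.4 CPM and all other cells to 32.4 CPM, and the range over members was 0 to 1929 CPM with a median of 0. Within the list, 1 gene was above the floor, Tagln, a gene of an actin-associated protein, at 15.6 against 6.77 CPM. Tagln passed the floor through the members. Prrx1, a transcription factor gene of mesenchyme, was under the floor but had a UMI in 45 members and was at 8.72 CPM (6.70 to 11.2), against 0.39 CPM in all other cells. Leaving out cells with 3 or more collagen UMIs removed 1 member and left 160 genes higher and 90 lower. Blood, mesothelial, enteric neural and enteroendocrine lists had no gene above the floor. Of 6 endothelial genes, 4 had no UMI in the members, and Egfl7 was at 14.3 against 26.4 CPM.

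Among organ lists, Gata3, a factor gene of urothelium and nephric duct, was at 27.3 CPM (23.6 to 31.3) against 3.03 CPM, with a UMI in 128 members. In cluster 12 Gata3 was at 20.2 CPM. The urothelial gene Upk1a was at 27.1 against 36.7 CPM. That list had 2 genes above the floor, of which Gata3 was higher. Afp, the alpha-fetoprotein gene, was at 168 against 60.1 CPM and was the single gene of 6 liver genes above the floor that was higher. Of 3 pancreatic genes above the floor, the exocrine enzyme gene Cpa1 was lower, at 0.83 against 23.7 CPM, and Sox9 was at 217 against 169 CPM. Of 3 genes of an epithelial-mesenchymal transition list above the floor, Fn1 alone was higher. Vim, the vimentin gene, was at 647 CPM in the members, 237 CPM in Onecut2-positive and 771 CPM in other Onecut2-low cells. No gene of the early response to dissociation differed by 2-fold, with 10 of 12 above the floor. Beside these lists, 1.89% of all genes were higher and 1.07% lower against all other cells. Gata3 was under 10 CPM in all other cells and passed the floor through the members, so it was prone to be called higher. Cpa1 was under 10 CPM in the members and passed through all other cells, so it was prone to be called lower.

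A cell was counted as cycling with 3 or more UMIs over 15 G2/M genes after thinning to 8000 UMIs. Of the members, 235 of 315 (74.6%, 69.4 to 79.3%) were cycling, against 85.5% of all other cells, 91.9% of Onecut2-positive and 79.5% of other Onecut2-low cells. Without thinning the shares were 83.2%, 91.8%, 95.7% and 88.2%. The interval of the members overlapped that of the other Onecut2-low cells and lay below that of the Onecut2-positive cells. No G2/M gene (15 of 15 above the floor) and no S phase gene (17 of 17) differed by 2-fold in summed level. Members that were not cycling had more Postn (839 against 535 CPM), Anxa5 (306 against 169 CPM), the endothelin gene Edn1 (197 against 98.3 CPM) and the synapse organizer gene Cbln2 (91.5 against 28.6 CPM) than cycling members. Hoxb9 was at 75.6 CPM in the first and 60.5 CPM in the second.

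The reporter was detected in 82 of 315 members, with at most 4 eGFP UMIs per cell. Its level was 14.4 CPM (11.8 to 17.4), against 23.9 CPM in all other cells, a log2 ratio of -0.70, and the intervals did not overlap. At equal depth 9.52% of members had an eGFP UMI, against 17.1% of all other cells. Bmi1 itself was at 12.5 CPM (10.0 to 15.3) against 15.8 CPM, with overlapping intervals, and 5.40% of members against 11.9% of all other cells had a UMI at equal depth. The shares at equal depth come from 1 random draw and rest on few UMIs. Before thinning, 22.9% of members had a Bmi1 UMI, against 33.6% of Onecut2-positive and 28.7% of other Onecut2-low cells.

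Clustering placed most members together. At the chosen resolution the 3426 cells formed 13 clusters, and 168 members (53.3%) lay in cluster 8 and 109 (34.6%) in cluster 9. Members were 85.7% of the 196 cells of cluster 8 and 83.8% of the 130 cells of cluster 9. The 2 clusters differed in cycling cells, 96.9% and 37.7%. Hoxb9 was at 65.1 CPM in cluster 8 and 66.8 CPM in cluster 9. Another 16 members lay in cluster 12, which held 96 cells and was led by Hoxb13, the keratin gene Krt15, Hoxa13 and Hoxd11. There Hoxb13 was at 226 CPM, Hoxa13 at 62.7 CPM and Hoxa10 at 119 CPM, while Hoxb13 was at 0.20 CPM in cluster 8 and 0.93 CPM in cluster 9. Cluster 12 as a whole had 167 CPM of Cald1, 456 CPM of Map1b, 241 CPM of 2610528A11Rik and 64.4 CPM of Ppp2r2b, against 159, 356, 266 and 63.9 CPM in cluster 8, so these levels were shared by cells outside the rule. The 16 members of cluster 12 had 143 CPM of Hoxb13, 40.4 CPM of Hoxb9 and 31.1 CPM of Cald1, against 67.1 CPM of Hoxb9 and 162 CPM of Cald1 in the members of cluster 8. Hoxb13 had a UMI in 13 of 315 members, with up to 21 in a cell, so its level in the members rests on few cells. The remaining group of 10 or more was 11 members in cluster 4, with 197 CPM of Postn and 430 CPM of Lgals2. Clusters were built from the same counts, so their leading genes are no test.

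**Figure D5:**
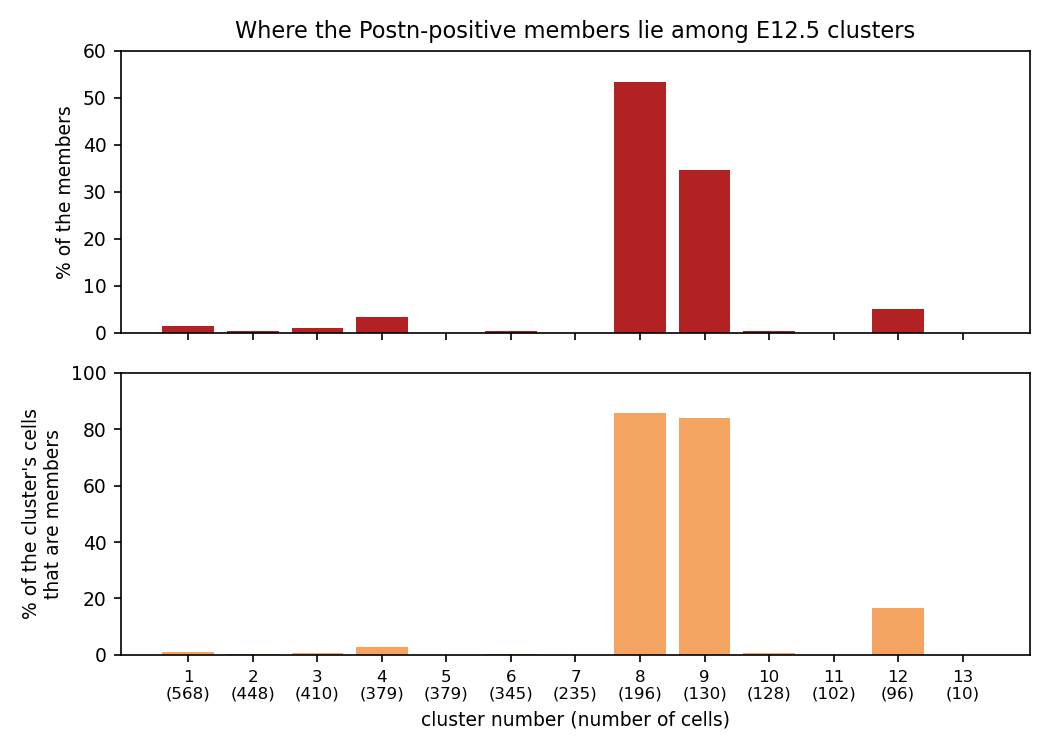
Share of the 315 members in each of 13 clusters of E12.5 cells (top, percent) and share of each cluster's cells that are members (bottom, percent); the number of cells is under each cluster. Clusters 8 and 9 hold 53.3% and 34.6% of the members and are mostly members, and cluster 12 holds 5.08%.

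The genes whose level was most like that of Postn over the 12 clusters with at least 20 cells were ranked among 8223 genes by Pearson correlation of log2(CPM + 1), as a description over clusters of 1 library. Anxa5 was first (r = 0.97). The next were Srgap1, Fn1 (r = 0.96), Clstn1, Tubb2b, Syt11, Uchl1, Camsap2, Supt20 and Fras1 (r = 0.92). Their ranges differed in size. Uchl1, a ubiquitin hydrolase gene known from neurons, ran from 23.4 to 128 CPM over the clusters, and Fras1, a basement membrane protein gene, from 80.0 to 136 CPM.

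Putative doublets, taken as the highest scores of a doublet caller, were 27 of 315 members (8.57%) and 146 of 3111 other cells (4.69%). Without them 288 members remained, with 170 genes higher and 98 lower. The part of doublets in the results was not tested.

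The same UMI rule found almost no cells in the other libraries. At E17.5, 6 of 3054 cells met it (0.20%, 0.07 to 0.43%). None of 989 adult cells did, which allows a share of up to 0.30%, and none of 1731 irradiated adult cells, which allows up to 0.17%. In Epcam-positive cells Postn was at 61.7 CPM at E12.5, 0.90 CPM at E17.5, 0.13 CPM in the adult and 0.28 CPM after irradiation. Gpc3 was at 172, 128, 0.18 and 0.25 CPM in the same order, and 2610528A11Rik at 82.7, 33.9, 2.17 and 0.36 CPM. Map1b did not follow that order, at 134, 37.0, 115 and 154 CPM. Anxa5 was at 35.9, 65.1, 97.0 and 176 CPM. Depth differed between the libraries, with median totals per barcode of 15049, 9715.5, 2847 and 3783 UMIs, and stage cannot be told apart from library. No member shared its barcode with another library, and 9, 12 and 6 of all E12.5 barcodes did.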

How the data were processed

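Each library was deposited by the authors as a matrix of raw UMI counts per gene and barcode. Per the submitters' processing notes these come from Cell Ranger 3.1.0 and build mm10; the selection of barcodes, the annotation and the strand setting are not given in the sources used here. The E12.5 library held 5216 barcodes and 90674425 UMIs. Counts were summed over each set of cells and divided by the set's total (CPM); ratios are log2((CPM + 1)/(CPM + 1)). With 1 library per group no test was possible: a gene counted as higher or lower at 2-fold or more, among genes with a mean of at least 10 CPM. A gene under 10 CPM in 1 set can pass this floor through the other set and is then prone to be called. List counts are therefore not directly comparable with the shares of all genes. Intervals are 95% exact Poisson (levels) and Clopper-Pearson (shares); a count of 0 allows up to 3 counts. Named genes were the 15 highest and 10 lowest ratios (5 and 5 for the other 2 sets) among genes with at least 200 UMIs in the higher set and a UMI in at least 25% of its cells. The rule left out its own genes, predicted genes, Xist and Y-linked genes, and those of haemoglobins, immunoglobulins, ribosomal proteins and mitochondria. The members and lists were chosen with earlier results of these data known, and the cluster 12 and cell cycle examples were picked after their values were seen. Clusters: scanpy 1.11.5, 2000 variable genes, 30 components, 20 neighbours, Leiden resolution 1. Scrublet's automatic threshold called no doublet among these cells and was not used; instead the highest scores were marked at 0.8% per 1000 barcodes, and marked cells were kept. TMM factors came from edgeR 4.0.16. Gene positions are GENCODE M21 (GRCm38; 31011 of 31053 IDs matched), promoter windows RefSeq (GRCm38.p6; all 4 markers matched). The counting code was tested on simulated data. A withheld item and the list counts that include it are not reported here.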

Additional observations from a re-analysis of the deposited data

How the results depend on the processing

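The share of E12.5 cells meeting the rule was 12.2% with Postn at 1 UMI or more, 7.41% at 6 or more, 7.62% with Onecut2 at 0 and 6.89% with the rule applied after thinning. Genes higher and lower numbered 85 and 47 with a pseudocount of 10 CPM, 402 and 251 with no floor, 35 and 13 with a floor of 50 CPM, and 260 and 150 in the 80 non-cycling members against non-cycling cells. A floor changes which genes are tested; for non-cycling cells the cause was not tested. The Bmi1 log2 ratio was -0.80 in non-cycling cells. The largest share of members in 1 cluster was 88.3% at resolution 0.5 and 31.4% at resolution 2. The median of the anterior Hox list was -0.18 with no floor, and that of the proximal factors 0.38 with a floor of 50 CPM; both lists then hold other genes. Of 820 values for 41 genes, 817 kept a 2-fold difference. The exceptions were Spry2 (0.99) and Fn1 (0.93) with Postn at 1 UMI or more, and Spry2 (0.79) with a pseudocount of 10 CPM. The 41 genes were those named for their large ratios and others picked from the markers and lists, all at least 2-fold different in the main setting. The settings with no floor and with a floor of 50 CPM cannot change a single gene's ratio, so their values were fixed in advance. Of 432 list medians 404 stayed the same, 26 moved and 2 changed sign. A change of sign was counted only for lists whose main median log2 ratio was at least 1 either way. The cycling share with the lower depth minimum was not computed, since thinning to 8000 leaves those cells out. Genes under 10 CPM, among them 14 of 16 posterior Hox genes and every gene of the stomach, blood, enteric neural, mesothelial and enteroendocrine lists, were too low to count. No paired analysis was possible because each group has 1 library and the labels carry no replicate numbers.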
